A study of Homo sapiens with 2 samples.

Results

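The genes described here are the integrated stress response and the serine and one-carbon enzymes that it is known to control: 33 genes chosen by name, comprising the kinases that phosphorylate the translation factor eIF2-alpha, the phosphatase subunits that reverse it, ATF4 with related transcription factors, and apoptotic, stress and metabolic targets. All 33 were among the 19052 genes with reads in either library, and 32 had the 20 or more reads in at least 1 library that were required for comparison, as had 13076 genes in all. Transcripts were sequenced from total RNA of TSU-Pr1, a line of human bladder carcinoma cells grown in 8% serum, which the series title describes as expressing KLF5 stably and the labels also call K12. One library came from cells given a control siRNA (siCtrl) and 1 from cells given siRNA against CINP (siCINP), a partner of cyclin-dependent kinase 2, each taken 48 h after transfection. The stable KLF5 expression is common to both groups. Its vector, the origin of K12 as a clone or a pool, and the sequences of either siRNA were not given in the sources used here.

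In the integrated stress response, kinases that sense different stresses phosphorylate eIF2-alpha, which lowers translation in general and raises translation of ATF4. ATF4 then binds composite C/EBP-ATF elements in amino acid synthesis, transport and stress genes. Serine synthesis branches from glycolysis, and serine feeds folate-bound one-carbon units through parallel cytosolic and mitochondrial enzymes. Much of the control of ATF4 acts on its translation and much of that of eIF2-alpha on its phosphorylation, and neither is measured by transcript counts.

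The siCtrl library held 10365249 reads and the siCINP library 10314147, of which the 33 genes took 0.328% and 0.310%. CINP had 203 and 53 reads, 4.02-fold fewer after scaling (log2 ratio -2.01, 95% interval -2.47 to -1.56), and KLF5 had 4013 and 4077 reads (-0.05, -0.11 to 0.02). The epithelial keratin genes KRT8 and KRT18 had between 27036 and 30507 reads in either library, whereas UPK1A, UPK1B, UPK3A and GATA3, markers of differentiated urothelium, had at most 19 and UPK2 and KRT20 were not among the listed genes. Of 7 compared urothelial and carcinoma markers, 5 had intervals above 0 and 0 below: KRT5 with 4 and 75 reads, KRT19 with 20 and 44, KRT7 with 154 and 297, CDH1 with 46 and 75, and KRT18, all 5 with fractional counts. The FPKM of the 15 markers summed to 3339 in siCtrl and 3594 in siCINP. The part of this difference in the results below was not tested. With 1 library per group there is no replicate check and no p-value. Each log2 ratio is siCINP over siCtrl after TMM scaling, and each 95% interval covers counting error between these 2 libraries only.

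The stress response and one-carbon genes differed little between the libraries, and most of the differences seen were lower values in siCINP. CHAC1, which degrades glutathione, was the only one of the 32 compared genes to differ by 2-fold or more with an interval that excluded 0. It was lower, and none was higher by that rule. Over all 13076 compared genes the same rule held for 1.41% in the lower and 1.69% in the higher direction. In 14 of the 32 genes (43.8%) the interval lay below 0, in 5 (15.6%) above 0, and in 13 it held 0. Over all compared genes 23.1% of intervals lay below 0 and 18.6% above. The median log2 ratio was -0.12 over the 32 genes and -0.01 over all compared genes.

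Deeply sequenced genes have narrower intervals, and these genes were read more deeply than most, with a median of 845 mean reads against 329. Among genes with 400 to 4000 mean reads, a range chosen after the values were seen, 13 of 24 members (54.2%) lay below 0 against 34.3% of 5480 genes, and 4 (16.7%) lay above 0 against 22.9%. The split also moved with scaling. With total-count scaling 11 members lay below 0 and 9 above, while 16.7% of all compared genes lay below and 26.6% above.

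**Figure D1:**
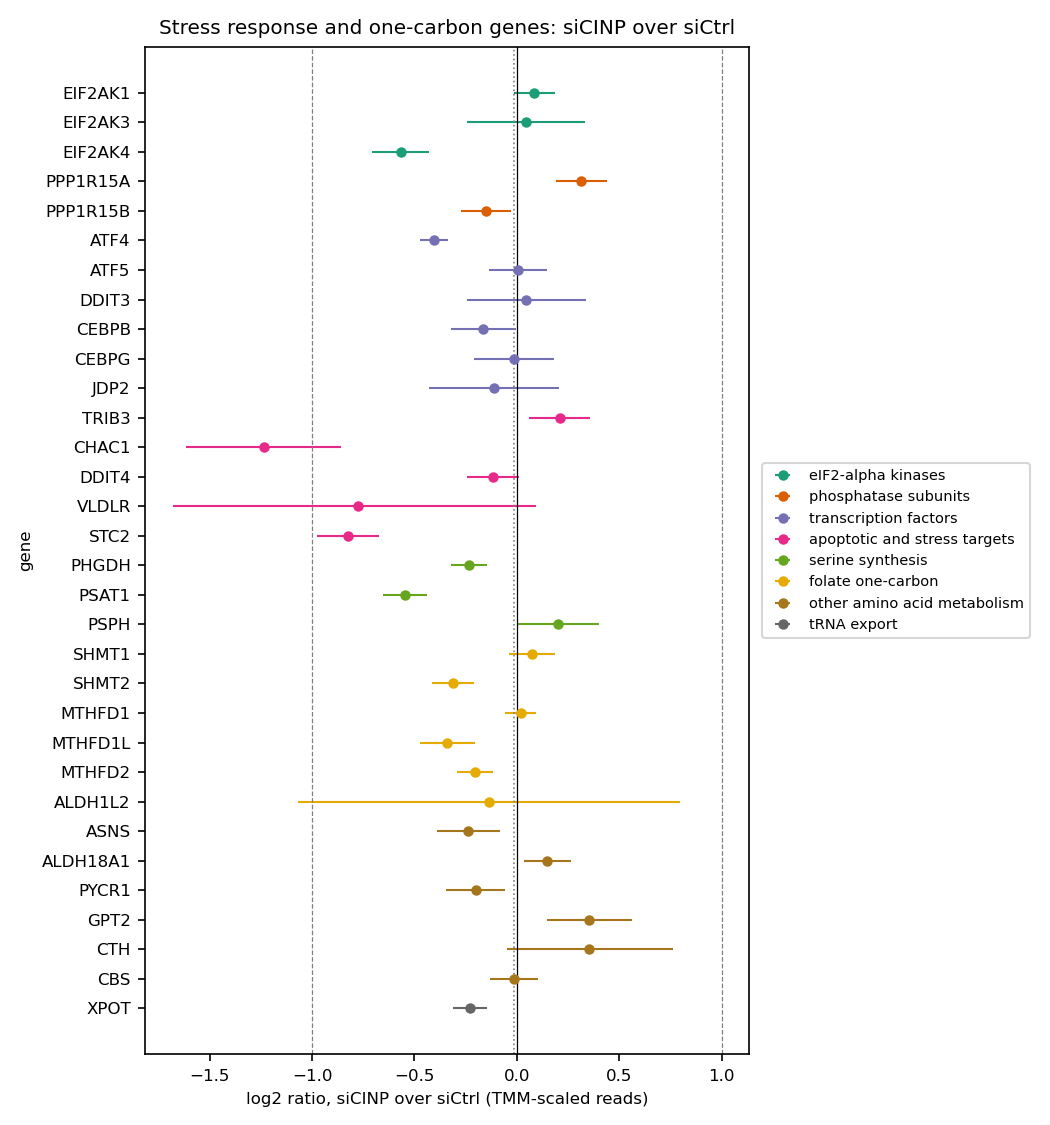
Log2 ratio of siCINP over siCtrl (x axis, TMM-scaled reads) for the 32 compared genes (y axis), coloured by role. Points are the ratio of 1 library per group, horizontal lines the exact 95% counting intervals, dashed lines a 2-fold difference and the dotted line the median of all compared genes, -0.01; CHAC1 alone lies beyond a dashed line, at -1.23.

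**Figure D2:**
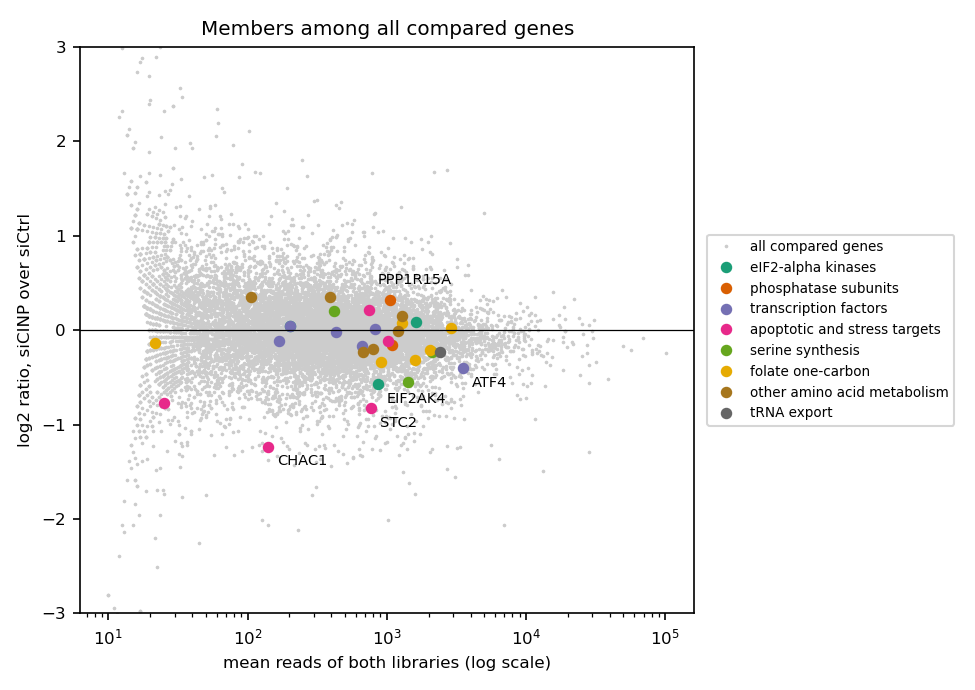
Log2 ratio of siCINP over siCtrl (y axis) against the mean reads of both libraries (x axis, log scale) for 13076 compared genes in grey and the 32 compared members in colour, 1 library per group. The axis ends at 3 in either direction, which leaves out 35 genes, none of them a member; most members lie on the right, where genes have more reads.

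Of the 3 kinases, EIF2AK4 alone had an interval that excluded 0. EIF2AK4, known as GCN2 and activated by uncharged tRNA, had 1022 reads in siCtrl and was 1.48-fold lower in siCINP, with 723 (log2 ratio -0.57, -0.71 to -0.43). EIF2AK1, the heme-regulated kinase that also relays mitochondrial stress, had 1548 and 1721 reads (0.08, -0.02 to 0.18). EIF2AK3, the kinase PERK of the endoplasmic reticulum, had 195 and 211 reads (0.05, -0.24 to 0.33). The interval of EIF2AK1 lay just above 0 with total-count, upper quartile and DESeq2 scaling (log2 ratios 0.16, 0.13 and 0.11).

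The kinases therefore stood in a different proportion in the 2 libraries, which can be measured without any scaling. There were 1.51 EIF2AK1 reads per EIF2AK4 read in siCtrl and 2.38 in siCINP, a log2 change of 0.65 (0.48 to 0.82). For EIF2AK3 the same ratio was 0.191 and 0.292, a log2 change of 0.61 (0.29 to 0.93). EIF2AK4 had fractional expected counts, the form that estimated counts take when reads are divided among genes. EIF2AK1 shares 532 annotated exon bases with AIMP2 on the other strand (562 and 507 expected counts), and EIF2AK3 shares 781 with AC104134.1 (46 and 47), so the values of all 3 kinases are uncertain to that extent.

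The regulatory subunits that direct protein phosphatase 1 to eIF2-alpha lay on opposite sides of 0. PPP1R15A, the stress-induced subunit GADD34, had 920 and 1200 reads and was 1.24-fold higher in siCINP (0.32, 0.19 to 0.44). PPP1R15B, the constitutive subunit CReP, had 1127 and 1063 reads (-0.15, -0.27 to -0.03), and its interval held 0 with total-count scaling (-0.08) and upper quartile scaling (-0.11). PPP1R15A reads per PPP1R15B read were 0.816 in siCtrl and 1.13 in siCINP, a log2 change of 0.47 (0.29 to 0.64).

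ATF4 was lower in siCINP, while most of the transcription factors that act with it or downstream of it had intervals that held 0. ATF4 had 3952 reads in siCtrl and was 1.32-fold lower in siCINP, with 3132 (-0.40, -0.47 to -0.34), or -0.33 with total-count scaling. Its FPKM of 264.7 and 210.53 was the highest of the 33 genes in both libraries. ATF5, a related factor of the mitochondrial stress response, had 796 and 839 reads (0.01, -0.13 to 0.15). DDIT3, the pro-apoptotic factor CHOP, had 193 and 209 reads (0.05, -0.24 to 0.34).

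CEBPB and CEBPG, which encode C/EBP factors that can pair with ATF4, had 684 and 640 reads (-0.16, -0.32 to -0.01) and 423 and 439 reads (-0.01, -0.21 to 0.18). The CEBPB interval held 0 with total-count, upper quartile and DESeq2 scaling (-0.09, -0.12 and -0.14). JDP2, an AP-1 family repressor, had 171 and 166 reads (-0.11, -0.43 to 0.21). NUPR1, a small stress-induced chromatin protein, had 8 reads with siCtrl and 1 with siCINP, too few to be compared (counting interval of the log2 ratio -8.54 to -0.17). ATF5 shares 563 annotated exon bases with NUP62 on the other strand (2012.08 and 1551.34 expected counts), and CEBPB shares 231 with CEBPB-AS1 (199.7 and 194.96). DDIT3 shares 62 with MARS1, named MARS in GENCODE 29 (2738 and 1720). No source used here gives a strand setting, so reads from those stretches cannot be told apart.

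The apoptotic and stress targets of ATF4 and DDIT3 held the largest and the most varied differences of any role. CHAC1 had 195 reads in siCtrl and was 2.35-fold lower in siCINP, with 87 (-1.23, -1.61 to -0.86). STC2, a secreted glycoprotein of calcium and phosphate balance, had 972 and 576 reads and was 1.77-fold lower (-0.82, -0.97 to -0.67). TRIB3, a pseudokinase that is a target of ATF4 and DDIT3 and also restrains ATF4, had 676 and 819 reads and was 1.16-fold higher (0.21, 0.06 to 0.36). CHAC1 and STC2 thus lay below 0 and TRIB3 above 0, and both CHAC1 and STC2 had whole counts whereas those of TRIB3 were fractional.

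DDIT4, the mTORC1 inhibitor REDD1, had 1036 and 1003 reads (-0.11, -0.24 to 0.01). VLDLR, a lipoprotein receptor, had 31 and 19 reads, and its log2 ratio of -0.77 had an interval of -1.68 to 0.10, which is too wide at this depth to show a difference. The median of the 5 genes, -0.77, is the value of VLDLR, and over the 4 with 100 or more reads it was -0.47. DDIT4 shares 847 annotated exon bases with DDIT4-AS1 and VLDLR shares 738 with VLDLR-AS1. Both lie on the other strand, and no count was found for either.

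Set against ATF4 within each library, TRIB3 and CHAC1 diverged. All of these ratios share ATF4, itself at -0.40, as their denominator. DDIT3 and ATF5 were at 0.05 and 0.01, so their ratios largely restate the lower ATF4 value. TRIB3 reads per ATF4 read were 0.171 in siCtrl and 0.261 in siCINP, a log2 change of 0.61 (0.45 to 0.78). DDIT3 per ATF4 went from 0.0488 to 0.0667 (0.45, 0.15 to 0.75) and ATF5 per ATF4 from 0.201 to 0.268 (0.41, 0.25 to 0.57). CHAC1 per ATF4 moved the other way, from 0.0493 to 0.0278 (-0.83, -1.22 to -0.45). For ASNS per ATF4 the change was 0.17 with an interval that just held 0 (-0.003 to 0.34).

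The composite element that ATF4 is known to bind was looked for as TGATGNAA on either strand of RefSeq promoters (GRCh38.p14, 300 bases from upstream to just past each annotated start), and its matches are shown because the genes that hold them differ in their ratios. An entry was found for 26 of the 33 genes. EIF2AK1, NUPR1, PSPH, SHMT2, ALDH1L2, PYCR1 and GPT2 had none. Of the 26 genes, 6 held a match (23.1%), compared with 4.46% of all 27305 genes in the table and 2.58% of the 10382 that were compared. The members were chosen by name with ATF4 targets among them, so this higher share is no finding about these libraries. Counted by promoter, 8 of 42 held one against 3.62% of 35116 promoters. The stretches are printed 5′ to 3′ on the gene's strand with the match in capitals.
CHAC1, chr15:40953251-40953280, plus strand: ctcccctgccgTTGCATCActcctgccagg
ASNS, chr7:97872458-97872487, minus strand: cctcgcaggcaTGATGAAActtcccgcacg
MTHFD1L, chr6:150866346-150866375, plus strand: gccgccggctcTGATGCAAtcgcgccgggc
CEBPG, chr19:33374060-33374089, plus strand: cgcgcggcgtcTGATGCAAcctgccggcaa
PPP1R15B, chr1:204412026-204412055, minus strand: cccgccccggcTGATGCAAcctcacgctgc
JDP2, chr14:75427995-75428024, plus strand: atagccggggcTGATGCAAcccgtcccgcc

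In CHAC1 the match is on the opposite strand to the gene and starts 209 bases before the annotated start. In ASNS it starts 68 bases before it, and in CEBPG 42. The form with C at the open position, TGATGCAA, was present in 5 of the 26 genes (19.2%) and in 1.08% of all genes in the table. Of the 6 genes with a match, 4 had intervals below 0 (CHAC1, MTHFD1L, ASNS and PPP1R15B) and 0 above, with log2 ratios from -1.23 to -0.01. Of the 20 compared genes whose promoter entries held none, 8 lay below 0 and 3 above. Over all compared genes 23.1% lay below 0 and 18.6% above, and among those with 400 to 4000 mean reads 34.3% and 22.9%. The PPP1R15B interval held 0 with total-count and upper quartile scaling. These groups are small, and a link between match and ratio was not tested. The motif came from general knowledge, a match is no evidence of binding in these cells, and a window this short leaves out elements elsewhere in the gene.

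Of the 3 enzymes of serine synthesis, 2 lay below 0 and 1 above. PHGDH, the dehydrogenase that opens the pathway, had 2239 reads in siCtrl and 1995 in siCINP (-0.23, -0.32 to -0.15). PSAT1, the aminotransferase of the middle step, had 1663 and 1194 reads and was 1.46-fold lower (-0.55, -0.65 to -0.44). PSPH, the phosphatase that releases serine, had 378 and 456 reads (0.20, 0.003 to 0.40), with fractional counts and an interval whose lower end was barely above 0.

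Relative to PHGDH, PSAT1 reads went from 0.743 to 0.598 per read (log2 change -0.31, -0.45 to -0.17) and PSPH reads from 0.169 to 0.229 (0.44, 0.22 to 0.66). The transcripts of the pathway's enzymes therefore stood in a different proportion to each other in the siCINP library. Summed over the 3 genes, FPKM was 195 in siCtrl and 168 in siCINP.

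Among the folate enzymes, 3 of the 4 mitochondrial members had intervals below 0, and the intervals of both cytosolic members held 0. SHMT2, the mitochondrial serine hydroxymethyltransferase, had 1726 and 1457 reads (-0.31, -0.41 to -0.21). MTHFD2, the mitochondrial dehydrogenase and cyclohydrolase, had 2148 and 1953 reads (-0.21, -0.29 to -0.12), and MTHFD1L, the mitochondrial enzyme that releases formate, had 995 and 824 (-0.34, -0.48 to -0.21). ALDH1L2, which oxidises mitochondrial formyl-folate, had 22 and 21 reads (-0.14, -1.07 to 0.80), too few to show a difference of less than about 2-fold.

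SHMT1, the cytosolic serine hydroxymethyltransferase, had 1229 and 1357 reads (0.07, -0.04 to 0.19), and MTHFD1, the cytosolic trifunctional enzyme, had 2801 and 2975 (0.02, -0.06 to 0.09). With total-count scaling both intervals lay above 0, at log2 ratios of 0.15 and 0.09, and SHMT1 also with upper quartile scaling (0.12). The difference between compartments does not rest on scaling, since it was measured within each library. SHMT2 reads per SHMT1 read were 1.40 in siCtrl and 1.07 in siCINP (log2 change -0.39, -0.54 to -0.24). MTHFD2 per MTHFD1 went from 0.767 to 0.656 (-0.22, -0.34 to -0.11) and MTHFD1L per MTHFD1 from 0.355 to 0.277 (-0.36, -0.51 to -0.20).

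Per length, the FPKM of the 4 mitochondrial enzymes summed to 198 in siCtrl and 171 in siCINP and that of both cytosolic enzymes to 124 and 135. SHMT1 shares 196 exon bases with SMCR8 on the other strand, which had 1536.01 and 1841.88 expected counts, MTHFD1 shares 178 with ZBTB25 (181.46 and 182.38) and MTHFD2 shares 1324 with SLC4A5 (85.36 and 75.04). SHMT2 shares 427 with AC137834.2 on the other strand, for which no count was found. The part of these overlaps in the ratios was not tested. MTHFD2 and ALDH1L2 had fractional counts.

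**Figure D3:**
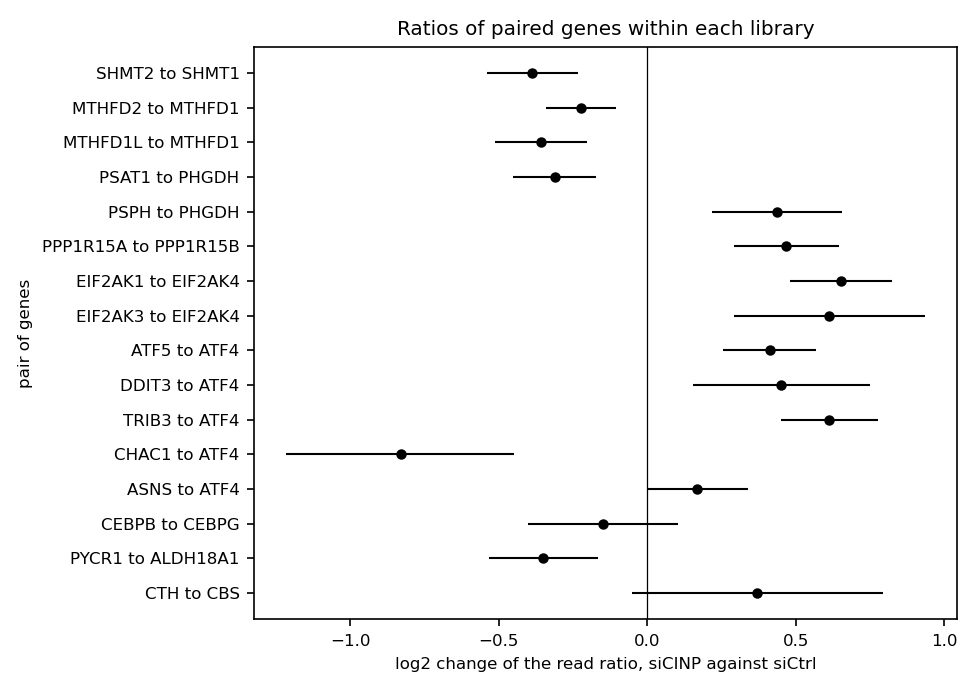
Log2 change from siCtrl to siCINP in the ratio of reads of paired genes within a library (x axis) for 16 pairs (y axis), 1 library per group. Points are odds ratios and lines exact 95% conditional intervals for counting error; 7 lie above 0, 6 below and 3 hold 0, with the 3 pairs of mitochondrial over cytosolic folate enzymes all below. Pairs that share a gene, such as those over ATF4 or EIF2AK4, are not independent of each other.

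The other enzymes of amino acid metabolism had no common direction, with 2 intervals above 0, 2 below and 2 that held it. ASNS, asparagine synthetase and a classical ATF4 target, had 719 and 640 reads (-0.24, -0.39 to -0.08), with fractional counts. It shares 1985 annotated exon bases with AC079781.5 on the same strand, for which no count was found. PYCR1, which completes proline synthesis in mitochondria, had 833 and 760 (-0.20, -0.34 to -0.06), and its interval held 0 with total-count scaling (-0.13). PYCR1 shares 450 exon bases with AC145207.4 on the other strand, also without a count. ALDH18A1, which opens proline synthesis from glutamate, was higher, with 1196 and 1391 reads (0.15, 0.04 to 0.26). PYCR1 reads per ALDH18A1 read went from 0.696 to 0.546 (log2 change -0.35, -0.53 to -0.17), so the beginning and end of proline synthesis differed in opposite directions.

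GPT2, the mitochondrial alanine aminotransferase, had 332 and 445 reads and was 1.28-fold higher in siCINP (0.35, 0.15 to 0.56). CTH, the cystathionine lyase of transsulfuration, had 91 and 122 reads with the same log2 ratio of 0.35 but an interval of -0.05 to 0.76, which lay above 0 with total-count scaling (0.43). CBS, the synthase of the step before it, had 1182 and 1228 reads (-0.01, -0.13 to 0.10). XPOT, the exporter of tRNA from the nucleus, had 2538 and 2271 reads (-0.23, -0.31 to -0.15).

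Contrasted by role, the transcription factors had a median log2 ratio of -0.06 over 6 compared genes, the apoptotic and stress targets -0.77 over 5 (the value of VLDLR, or -0.47 over the 4 with 100 or more reads), and the metabolic members, from serine synthesis to transsulfuration, -0.14 over 15. Intervals lay below 0 in 2 of the 6 factors, 2 of the 5 targets and 7 of the 15 metabolic genes, and above 0 in 0, 1 and 3. Over all compared genes 23.1% lay below 0 and 18.6% above, and among those with 400 to 4000 mean reads 34.3% and 22.9%. The mean of the targets was -0.55, and their median was -0.28 with FPKM and a pseudocount of 1. These groups are small and were not tested against each other.

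In order of level, the members kept nearly the same places in both libraries. ATF4, PHGDH, MTHFD2, MTHFD1 and SHMT2 held the highest 5 ranks by FPKM, in that order, in both libraries. PHGDH had an FPKM of 107.09 and 95.9, and MTHFD2 92.69 and 84.92. PSAT1 went from rank 6 to rank 9 (FPKM 70.88 and 51) and PPP1R15A from rank 12 to rank 10 (36.96 and 48.45). At the other end, VLDLR, NUPR1 and ALDH1L2 had under 1 FPKM in both libraries.

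**Figure D4:**
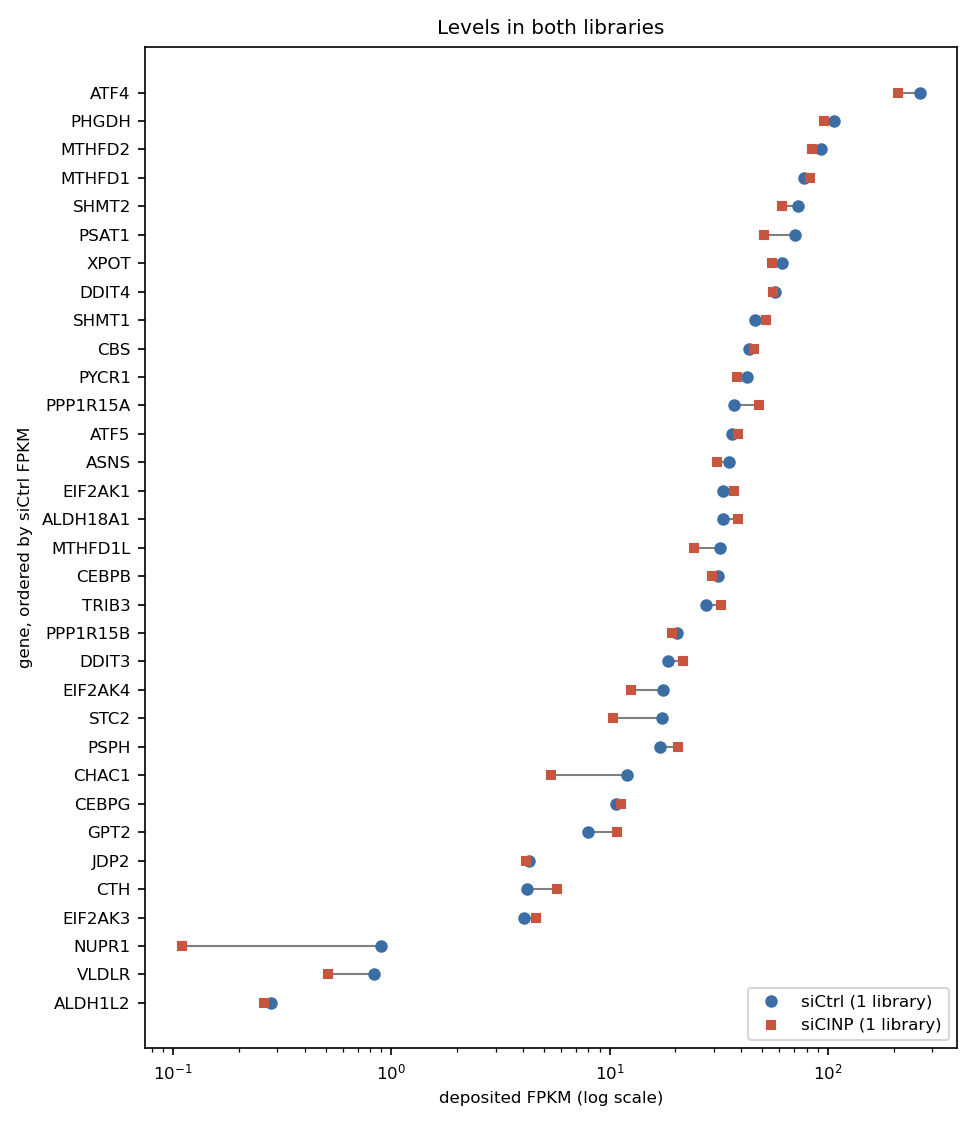
Deposited FPKM (x axis, log scale) of the 33 genes (y axis, ordered by the siCtrl value) in the siCtrl library (circles) and the siCINP library (squares), 1 library each. ATF4 is highest in both, at 264.7 and 210.53, and most pairs of points lie close together beside the spread of over 100-fold between genes.

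The deposited length, which can change with the mix of transcripts assigned to a gene, differed between the libraries for 20 of the 33 genes. For MTHFD1L it was 2986.41 bases in siCtrl and 3257.16 in siCINP, so that its FPKM (32.02 and 24.41) had a log2 ratio of -0.39. For DDIT3 it was 1024.28 and 951.96, and for EIF2AK3 4582.71 and 4419.97. No source used here says how this length was averaged over transcripts.

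An earlier look at these libraries had tied the 3′ UTR heptamers TGCAAGA and GCAAGAA to lower values in siCINP, and they were looked for in the longest annotated 3′ UTR of each gene (GENCODE 29). Of the 32 compared members 1 carried either heptamer (3.13%), against 18.4% of 11666 compared genes with such a UTR. The carrier was JDP2, and NUPR1, which was not compared, carried both in its longest annotated UTR. That UTR has 4975 bases in NUPR1, whose deposited length was 884 in both libraries. For JDP2 it has 4636, with deposited lengths of 3828.52 in siCtrl and 3862.07 in siCINP. The longest UTR therefore need not be that of the transcripts counted here. None of the 14 genes with intervals below 0 carried one, CHAC1, STC2, EIF2AK4, PSAT1 and ATF4 included. Without JDP2 the median of the members was -0.14. The sites are shown with the heptamer in capitals, on the strand of the gene in GRCh38.
JDP2, chr14:75472124-75472153, plus strand: ataggcttcatTGCAAGAgccagcatttga
NUPR1, chr16:28537480-28537509, minus strand: cctagcaaaagTGCAAGAtggggagtgaga
NUPR1, chr16:28534543-28534572, minus strand: cgaagaagctaGCAAGAAacattgcccaca

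Of 105 further genes of these pathways in 5 lists, 98 were compared. By the 2-fold rule 3 of these were lower (3.06%) and 0 higher, against 1.41% and 1.69% of all compared genes. EIF2S2, the beta subunit of eIF2, had 3936 reads in siCtrl and 1490 in siCINP and was 2.77-fold lower (-1.47, -1.56 to -1.38). GDF15, a cytokine secreted under stress, had 749 and 296 reads (-1.41, -1.61 to -1.21), and PPAT, which begins purine synthesis, had 655 and 315 (-1.12, -1.32 to -0.93). EIF2S2 and PPAT carry the heptamers and GDF15 does not. The sites in EIF2S2 and PPAT, on the strand of the gene in GRCh38, are shown for comparison with the members, in which such sites were rare.
EIF2S2, chr20:34089572-34089601, minus strand: tctgaagtcctTGCAAGAcgctgatgctca
EIF2S2, chr20:34089453-34089482, minus strand: cttctgtaaaaTGCAAGAtaaattaaagtt
EIF2S2, chr20:34089362-34089391, minus strand: tggtgaaatcaGCAAGAAaccaaccatata
PPAT, chr4:56395026-56395055, minus strand: tttaaagggttTGCAAGAAgttagggttaa

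Of 22 eIF2 and eIF2B genes and partners of the kinases and phosphatase, 4 intervals lay below 0 and 6 above, where 23.1% of all compared genes lay below and 18.6% above. With total-count scaling 4 lay below and 11 above, where 16.7% of all compared genes lay below and 26.6% above. Besides EIF2S2, the lower ones included EIF2A, an alternative initiator tRNA factor, at -0.66 (1051 and 698 reads), and PPP1CA, a catalytic subunit that PPP1R15A and PPP1R15B direct, at -0.47 (2570 and 1944 reads). DENR, a factor of reinitiation known to act on ATF4 translation, was higher at 0.71 (819 and 1407 reads). EIF2A and DENR had fractional counts.

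Of 24 compared further ATF4 and stress genes, 18 lay below 0 and 1 above, with a median of -0.20, against the same shares of 23.1% and 18.6% over all compared genes. With total-count scaling 12 lay below and 2 above, against 16.7% and 26.6%. This list includes tRNA synthetases and amino acid transporters, some read very deeply, such as SLC7A5 with 51981 and 48453 reads. Small ratios such as -0.09 for SARS1 (2577 and 2544 reads) therefore had intervals below 0. With TMM scaling, 34.3% of all genes with 400 to 4000 mean reads lay below 0 and 22.9% above. No list was matched to all genes by depth. Besides GDF15, the named genes were SLC7A1, an arginine and lysine transporter, at -0.50 (2561 and 1904 reads), RIT1, a small GTPase, at -0.69 (285 and 185 reads, fractional), and LONP1, a mitochondrial protease, the 1 gene above 0, at 0.53 (615 and 932 reads). SLC7A1 and RIT1 carry the heptamers.

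Of 22 compared genes of the folate and methionine cycles and purine synthesis, 11 lay below 0 and 3 above, with a median of -0.08, to be read against the same 23.1% and 18.6%. DLD, a dehydrogenase shared with glycine cleavage, was at -0.48, MAT2B, a regulatory subunit of methionine adenosyltransferase, at 0.48, and PFAS, a purine synthesis enzyme with fractional counts, at 0.34. With total-count scaling 5 lay below 0 and 3 above in this list, where 16.7% of all compared genes lay below and 26.6% above. Of 17 proline, glutamate and glutathione genes, 6 lay below 0 and 1 above, and with total-count scaling 4 and 2. The shares of all compared genes in each setting are those just given. PRODH, which degrades proline, was at -0.45, GOT2, a mitochondrial aspartate aminotransferase, at -0.21, GSR, glutathione reductase, at -0.33 and SQOR, a sulfide oxidoreductase, at -0.24. Of 13 other stress transcription factors, 5 lay below 0 and 4 above, with NFE2L2, the regulator of the oxidative response, at -0.49, NFE2L1, a related factor that controls proteasome genes, at 0.42 and ATF7 at 0.37. CREB1, a cyclic AMP response factor, was at -0.39 by reads, but its counts were fractional and its deposited length went from 6299.12 to 4806.45 bases, so that its FPKM was 14.75 and 15.61 (log2 ratio 0.08) and its direction turns with the measure. Of the 20 genes named from these lists, 6 of the 14 with intervals below 0 and 0 of the 6 above carry either heptamer, CREB1 counted among the 14. Over all compared genes with a 3′ UTR, 28.2% of those with intervals below 0 and 13.6% of those above carry one, so that 0 of 6 is near what all genes show. The heptamers had been tied to lower values in these same libraries, and the named genes were picked by their intervals. Neither split is therefore independent of that choice.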

How the data were processed

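One library per group was analysed, so no test between the groups was possible. Per the file headers, each deposited table gives an expected count per gene, an estimate of its reads without normalisation. It also gives FPKM, which the authors scaled to gene length and depth, and a length. Bowtie2, HISAT and hg19 appear in the submitters' processing notes, with the counting tool and annotation not given in the sources used here. Of 19052 identifiers, 18971 matched a RefSeq symbol of GRCh38.p14, a different build, so coordinates are given only for sequences taken from the reference.

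Expected counts were rounded and scaled by TMM in edgeR 4.0.16 under R 4.3.3 (factor 0.974 in siCtrl, 1.03 in siCINP). Log2 ratios have exact Clopper-Pearson 95% intervals from scipy 1.17.1, and ratios between genes have exact conditional intervals. Intervals cover counting error only, since reads without molecular identifiers are not independent molecules. Counts were called whole within 0.005, as for 60.1% of compared genes and 23 of the 33 members. A count of 0 stood at 3 reads. The method was tested on simulated data with counting error only. Those data hold no spread between samples and no divided reads, so they could not check the method for either.

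The members, the lists and their rules were chosen with earlier results of these data known. All members are named, and from each other list genes past the 2-fold rule and up to 4 with the interval that excluded 0 by the widest margin. Alternatives were scaling by DESeq2 1.42.0, by total counts or by the upper quartile, FPKM with pseudocounts of 0.1 and 1, other minimums of reads, other size rules, thinning, whole counts only and means.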

Additional observations from a re-analysis of the deposited data

How the results depend on the processing

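No paired analysis was possible because each group has 1 library. Of 244 alternative log2 ratios of single members, 239 stayed inside the counting interval and 5, of ATF4 and MTHFD1 with total-count scaling or FPKM, moved outside it, and 0 of those called changed sign. The settings with a minimum of 100 reads or whole counts only select genes without changing a ratio, so their values could not move. All 16 ratios between paired genes stayed inside their intervals with FPKM in place of reads. Total-count scaling moved the median of all compared genes by 0.08. A median was taken as moved when it shifted by more than the median half-width of its genes' counting intervals, which 92 of 99 alternative medians did not.

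Of the members, 2 were lower with no minimum of reads, where NUPR1 joined CHAC1, 2 with a 1.5-fold rule and 0 among genes with 400 to 4000 mean reads, a range added after seeing the data in which CHAC1 has no place. With no fold minimum 14 were lower and 5 higher. Intervals above 0 numbered 9 with total-count scaling, where 26.6% of all compared genes lay above 0 and 16.7% below. With whole counts only, as in 23 of the 33 members (NUPR1, not compared, among them), 3 lay above 0 and 9 below. In that setting 18.5% of all compared genes lay above 0 and 24.9% below. The kinase median became -0.15 as a mean, that of the phosphatase subunits 0.32 with whole counts only, where PPP1R15A alone was left, and that of serine synthesis -0.39 with whole counts only. The median of the apoptotic and stress targets was -0.61 and -0.28 with FPKM and pseudocounts of 0.1 and 1, -0.47 with a minimum of 100 reads and -0.55 as a mean. With total-count scaling, intervals above 0 numbered 11 in the eIF2 list, 2 in the ATF4 list and 2 in the proline and glutathione list, and intervals below 0 numbered 5 in the folate and methionine list. These counts are to be read against the total-count shares of 26.6% above 0 and 16.7% below. Where fewer genes were left, that is what moved the count. Total-count scaling raised every log2 ratio by the same 0.08, and the counts given with it moved through that shift. For the other settings the cause was not tested. Depth limits ALDH1L2, VLDLR and NUPR1 most.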
